A study of Mus musculus with 9 samples.

Results

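Long intergenic noncoding RNA (lincRNA) genes were followed in 9 RNA-seq libraries of cultured mouse retina, 5 of control explants and 4 of explants given 2-deoxy-D-glucose (2-DG), a glucose analog that blocks glycolysis. The genes were all those that carry the biotype lincRNA in the comparison table deposited with the series, which gave 158 of its 12568 genes, against 55487 genes in the deposited gene table. The retinas, from P28 (postnatal day 28) mice of the wild-type C57BL/6J strain, were cultured for 48 h in Neurobasal-A with 5 mM glucose, either without 2-DG (control) or with 20 mM 2-DG, before 1 h in Krebs' Ringer medium. The titles call the libraries of a group biological replicates, without saying how many mice or retinas went into each, and the p-values measure the spread between these libraries. The comparison asks how a block of glycolysis alters the noncoding transcripts of the mature retina.

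LincRNAs are transcripts without a long open reading frame that are made from genes lying between protein-coding genes. Some act in the nucleus as scaffolds or on chromatin, such as Xist, which coats the inactive X chromosome of female cells, and Neat1, the core of paraspeckles. Others are precursors of microRNAs (miRNAs) or small nucleolar RNAs, and for most of those with only a clone or Gm number no function is known.

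The 158 members were mostly little studied genes of moderate level. A given name was carried by 23 of them, a Gm number by 83, a Rik name by 48 and a clone name by 4. Their mean level over the 9 libraries ran from 1.05 to 3613 CPM (counts scaled to a common library total), with a median of 12.9 CPM against 41.8 CPM for the protein-coding genes of the same table. Of the members, 65 lay under 10 CPM and 12 reached 100 CPM or more. The median exon length was 2848 bases against 4822 for protein-coding genes, 29 members had a single exon in every transcript, and 9 lay on the X chromosome. In the GENCODE M21 annotation 23 members overlapped a protein-coding gene and another 49 lay within 5000 bases of one. Whether the authors' counting used strand is not given in the sources used here, so reads of overlapping genes may be shared. That annotation calls 156 of the 158 lincRNA, the others being Gm47283 (protein coding, at the end of the Y chromosome) and Snhg15 (processed transcript).

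Libraries held 11317734 to 51802249 counts, so that 3 counts in a library corresponded to 0.0579 to 0.265 CPM, and all 158 members passed the filter on low counts. Of the 5614 lincRNA genes of GENCODE M21 in the deposited gene table, 1221 passed it, so that the members are only part of the lincRNA genes measured. Rod photoreceptor markers (5 of 5 detected) summed to 4384 to 37540 CPM in control and to 6597 to 13710 CPM in 2-DG libraries. Muller glia markers (5 of 5 detected) summed to 1372 to 5893 CPM in control and to 548 to 2378 CPM in 2-DG libraries, lower on average and overlapping, and their part in the results was not tested. Mitochondrial genes took 3.40 to 13.6% of the counts, with 10.7% in control replicate 2 and 13.6% in 2-DG replicate 4. Control replicate 2 stood apart, with the highest rod sum, with cone markers at 511 CPM (37.9 to 65.8 CPM in the other control libraries) and ganglion cell markers at 1372 CPM (234 to 575), and with the highest level of any library in 74 of the 158 members (46.8%, against 23.0% of all genes tested). The median member lay 0.52 log2 units above its control mean in that library and between 0.04 and 0.15 below it in the other control libraries. 2-DG replicate 3 also stood apart, with cone markers at 634 CPM (40.6 to 86.1 CPM in the other 2-DG libraries) and pigment epithelium markers at 121 CPM (1.78 to 21.3). The part of these markers in the results was not tested. The main results are therefore given with and without control replicate 2. When 2-DG replicate 3 was left out, the median log2 fold change of the members was -0.39 and the difference in share -0.322 points, against -0.42 and -0.317 with all libraries.

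**Figure D1:**
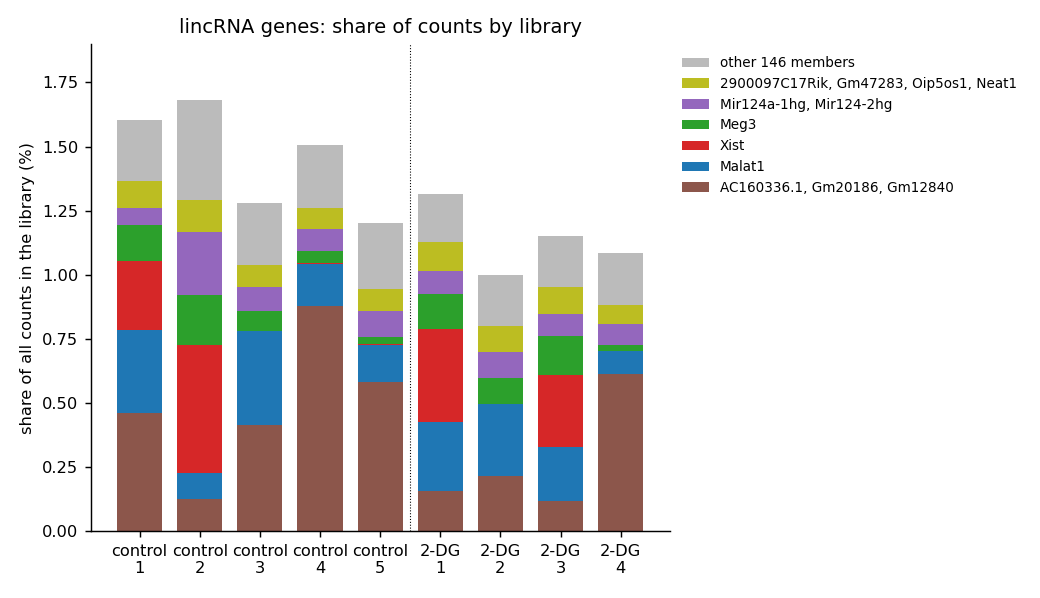
Share of all counts in each library (percent, vertical axis) taken by the 158 lincRNA genes in 5 control and 4 2-DG libraries (horizontal axis), with the 12 most abundant members in colour and the other 146 in grey. The bars reach 1.20 to 1.68% in control and 1.00 to 1.31% in 2-DG libraries, and the coloured part differs in make-up from library to library more than in height.

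LincRNA genes took a lower share of the counts in 2-DG libraries on average, but the groups overlapped. The share was 1.60, 1.68, 1.28, 1.51 and 1.20% in the control libraries (1.46% ± 0.206, SD, n = 5) and 1.31, 1.00, 1.15 and 1.09% in the 2-DG libraries (1.14% ± 0.133, SD, n = 4). 2-DG replicate 1 lay within the control range and the other 2-DG libraries below it. The difference of the means was -0.317 percentage points (-0.260 without control replicate 2), and as a sum over chosen genes it was given no test. The 95% Wilson intervals of single libraries, which cover counting error only, were narrow, for example 1.67 to 1.69% in control replicate 2, and the spread between libraries was far larger. Gene values in the deposited table are not the sums of the transcript values of the deposited transcript table. Summed over member transcripts, the share was 1.13 to 1.71% in control and 1.48, 1.00, 1.40 and 1.01% in 2-DG libraries, so that 2-DG replicates 1 and 3 both lay within the control range, and the difference was -0.169 points. That difference turned on single libraries, being -0.0895 points when control replicate 1 was left out, and -0.255, -0.0949 and -0.0968 points when 2-DG replicates 1, 2 and 4 were left out in turn. The antisense genes of the same table took 0.177% ± 0.0656 in control and 0.109% ± 0.0155 in 2-DG libraries (a difference of -0.0677 points, or -0.0404 without control replicate 2), and its protein-coding genes 94.6% ± 0.746 and 95.5% ± 0.646 (SD, n = 5 and 4).

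A handful of genes made up this share. The 5 most abundant members, AC160336.1, Malat1, Xist, Meg3 and Mir124a-1hg, held 64.3 to 74.1% of the lincRNA counts of a library, and the first 12 held 76.9 to 85.8%. AC160336.1 took 0.439% ± 0.241 of all counts in control and 0.250% ± 0.208 in 2-DG libraries, Malat1 0.221% ± 0.116 and 0.212% ± 0.0869, Xist 0.155% ± 0.223 and 0.161% ± 0.187, and Meg3 0.0976% ± 0.0687 and 0.103% ± 0.0578 (SD, n = 5 and 4). Of the difference of -0.317 percentage points, AC160336.1 alone gave -0.189, and Malat1, Xist and Meg3 gave between -0.0084 and 0.0056 each. The part of AC160336.1 turned on single libraries: it was -0.291 of -0.299 points without 2-DG replicate 4 and -0.105 of -0.303 points without control replicate 4. Since counts are not divided by length, AC160336.1, with a single exon of 93147 bases, led the counts while Malat1 led per length, at 303 CPM per kilobase of exon against 38.8 for AC160336.1 (means of the 9 libraries).

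The overlap of the groups came and went with single members. Without Xist the share was 1.33, 1.19, 1.28, 1.50 and 1.20% in control and 0.954, 0.997, 0.874 and 1.09% in 2-DG libraries. All 2-DG libraries then lay below all control libraries, with a difference of -0.322 points. Without AC160336.1 the control libraries ran from 0.679 to 1.57% and the 2-DG libraries from 0.528 to 1.17%, and the groups overlapped over most of their range, with a difference of -0.128 points. That direction was not stable: the difference was 0.0102 points when control replicate 2 was left out (control mean 0.878%, 2-DG mean 0.888%), -0.00795 points when 2-DG replicate 4 was, and -0.0846, -0.199, -0.212 and -0.222 points when control replicates 1, 4 and 5 and 2-DG replicate 1 were left out in turn. Leaving out Xist or AC160336.1 was chosen after these values had been seen.

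As a sum, the 146 members outside the first 12 had a lower share in every 2-DG library than in any control library. This holds for the sum and not for each gene. Together they took 0.236, 0.388, 0.240, 0.247 and 0.259% of the counts in the control libraries (0.274% ± 0.0644, SD, n = 5) and 0.187, 0.199, 0.201 and 0.202% in the 2-DG libraries (0.197% ± 0.00712, SD, n = 4). The groups did not overlap, control replicate 2 lay far above the other control libraries, and those were still above the highest 2-DG library by at least the distance from 0.202 to 0.236%. The difference was -0.0772 points with all libraries and -0.0486 points without control replicate 2 (control mean 0.246%), when the groups still did not overlap.

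**Figure D2:**
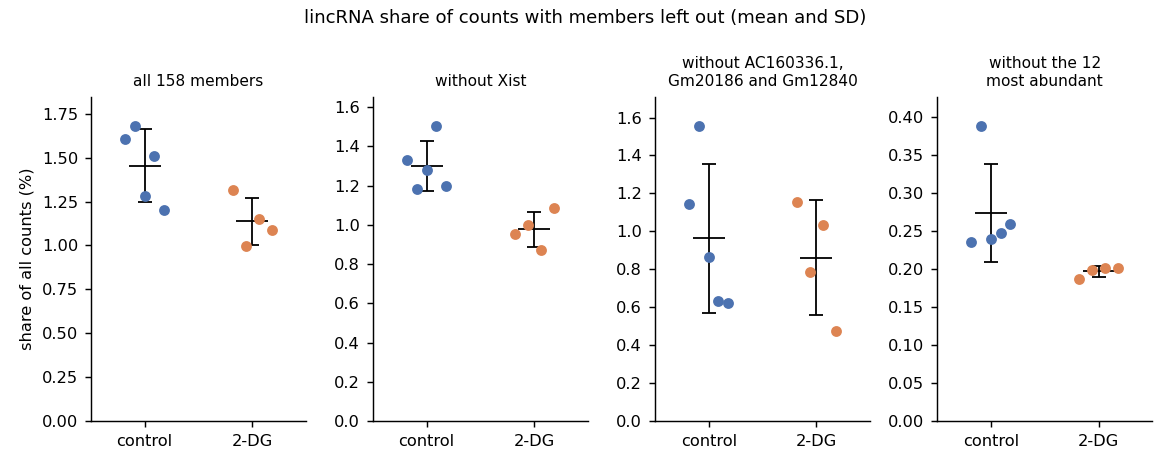
Share of all counts (percent, vertical axes, each from 0 with its own scale) for all 158 lincRNA genes and with members left out, by group (horizontal axes); points are libraries and bars the mean and SD. The 2-DG points lie below every control point without Xist (0.874 to 1.09% against 1.19 to 1.50%) and without the 12 most abundant genes (0.187 to 0.202% against 0.236 to 0.388%), and the groups overlap in the other panels.

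AC160336.1 did not vary on its own. Gm20186 on chromosome 6 and Gm12840 on chromosome 4, both among the 12 most abundant members, share a stretch of 163 bases with it that can be laid over each other without a gap. The stretch runs from base 87118 to 87280 of transcript AC160336.1-201 (chr14:44549922-44550084 on GRCm38, minus strand, within its only exon), from 308 to 470 of Gm20186-202 and from 168 to 330 of Gm12840-201. It is printed because reads from it could be assigned to any of the 3 genes. Capitals mark the 5 positions at which the 3 are not all alike.
AC160336.1: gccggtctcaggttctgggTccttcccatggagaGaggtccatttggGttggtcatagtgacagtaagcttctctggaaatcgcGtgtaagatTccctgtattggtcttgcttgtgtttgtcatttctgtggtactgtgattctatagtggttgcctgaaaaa
Gm20186: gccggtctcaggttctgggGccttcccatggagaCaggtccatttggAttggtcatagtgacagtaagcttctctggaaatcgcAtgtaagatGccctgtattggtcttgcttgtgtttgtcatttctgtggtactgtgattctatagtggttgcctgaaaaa
Gm12840: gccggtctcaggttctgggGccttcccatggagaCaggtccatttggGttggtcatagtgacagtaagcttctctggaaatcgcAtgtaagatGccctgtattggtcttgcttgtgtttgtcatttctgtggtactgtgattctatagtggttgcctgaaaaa

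In this stretch AC160336.1 was 96.9% identical to Gm20186 and 97.5% identical to Gm12840, and the last pair was 99.4% identical. AC160336.1 stood at 3896, 1178, 3401, 7649 and 5302 CPM in the control libraries and at 1377, 1886, 1021 and 6807 CPM in the 2-DG libraries. Gm20186 stood at 293, 103, 282, 717 and 406 CPM in control and at 103, 140, 85.9 and 506 CPM in 2-DG libraries. Gm12840 stood at 137, 42.9, 128, 297 and 176 CPM and at 50.6, 77.8, 40.5 and 178 CPM. All 3 were high in control replicates 1, 3, 4 and 5 and in 2-DG replicate 4, and low in control replicate 2 and 2-DG replicates 1, 2 and 3. The ratio of AC160336.1 to Gm20186 stayed between 10.7 and 13.5 in every library, and that to Gm12840 between 24.2 and 30.1 in all but 2-DG replicate 4, where it was 38.2. Pearson's r of log2 CPM over the 9 libraries was 0.987 to 0.994 for the 3 pairs, as a description of genes that share sequence and libraries. Each of the 3 overlapped between the groups, with log2 fold changes of -0.63 (SE 0.66), -0.79 (SE 0.63) and -0.85 (SE 0.56), and edgeR gave adjusted p-values of 0.849, 0.815 and 0.778. Limma-voom with sample quality weights called all 3 lower, at log2 fold changes of -1.59, -1.77 and -1.55 (adjusted p = 0.0373, 0.0306 and 0.0419), and no other test run called them. Those weights were 0.263 for 2-DG replicate 4, the 2-DG library in which all 3 were high, against 4.18, 2.66 and 0.664 for 2-DG replicates 1, 2 and 3, and 0.275 for control replicate 2, the control library in which they were low. Without 2-DG replicate 4, edgeR gave log2 fold changes of -1.59 (SE 0.56), -1.72 (SE 0.54) and -1.47 (SE 0.53) and adjusted p-values of 0.319, 0.301 and 0.322. Single libraries also moved the difference the other way. Without control replicate 4, the highest library of all 3 genes, the difference in share of AC160336.1 shrank from -0.189 to -0.105 points. Vessel and pericyte markers (5 of 5 detected) summed to 2452 CPM in 2-DG replicate 4 and to 391 to 834 CPM in the other 2-DG libraries, and to 998 and 1890 CPM in control replicates 4 and 5 against 228 to 425 in the other 3; whether this has a part in the level of AC160336.1 was not tested.

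**Figure D3:**
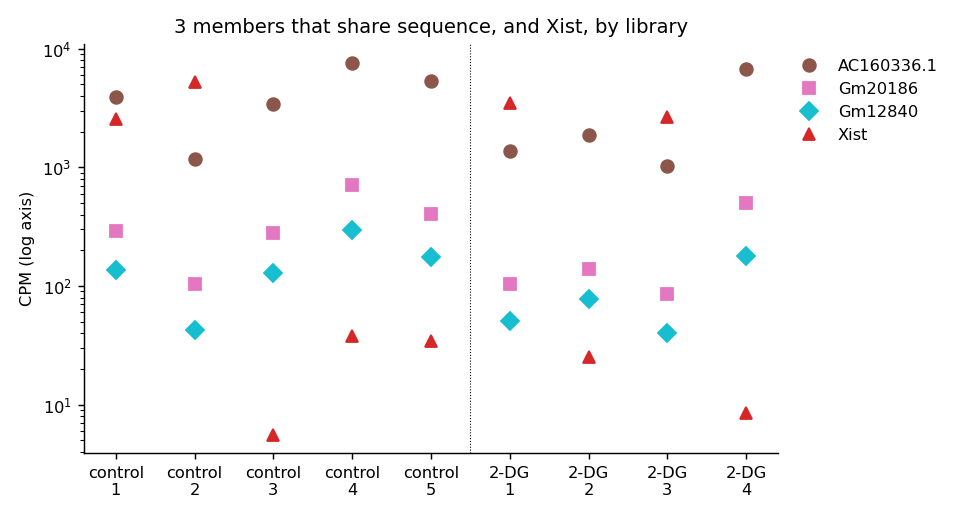
Level in CPM (vertical axis, log scale) of AC160336.1, Gm20186, Gm12840 and Xist in each of the 9 libraries (horizontal axis; 1 point per gene and library). The first 3 genes rise and fall together, with AC160336.1 between 1021 and 7649 CPM, and Xist splits the libraries into 4 at 2562 CPM or more and 5 at 38.1 CPM or less.

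Gene by gene, edgeR's quasi-likelihood test with Benjamini-Hochberg adjustment over the 21049 genes tested called 0 of the 158 lincRNA genes at an adjusted p of 0.05, and 0% of all genes. The smallest adjusted p of a member was 0.510, for 2900052N01Rik. At an unadjusted p under 0.05 there were 18 lower members (11.4%, beside 4.83% of all genes tested) and 1 higher member (9430037G07Rik, beside 2.42%). In 6 members every 2-DG library lay below every control library (3.80%, beside 1.41% of all genes) and in 0 above (beside 1.52%). The count at an unadjusted p depended on single libraries: it was 45 without 2-DG replicate 4 (44 lower, beside 9.49% of all genes), 8 without 2-DG replicate 1 (all lower, beside 3.17%), 12 without 2-DG replicate 2 (all lower, beside 3.28%) and 13 without control replicate 2 (11 lower, beside 6.07%, and 2 higher, beside 2.92%). The count without overlap was 17 without 2-DG replicate 4 (16 lower, beside 4.63% of all genes lower and 4.63% higher) and 11 without control replicate 5 (all lower, beside 1.88%). Without control replicate 2 it was 8 (all lower, beside 4.47% of all genes lower and 2.57% higher). In that setting the shares of lower members by both counts, 11 and 8 of the 158, were only a little above those of all genes.

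Other tests called a few. DESeq2 called 4 members, all lower (beside 1.35% of all genes, 0.969% lower and 0.38% higher). Limma-voom with sample quality weights called 14, of which 13 were lower (beside 5.81% of all genes, 4.27% lower and 1.54% higher). EdgeR with 2 surrogate variables called 5, all lower (beside 3.44% of all genes, 2.43% lower and 1.01% higher), and 2900052N01Rik and Gm9484 were called by each of these 3. EdgeR without surrogate variables called 0 members when control replicate 2 was left out (beside 0.0775% of all genes).

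The members were shifted towards lower values as a body. Their median log2 fold change was -0.42, against -0.01 for all genes tested, and 128 of the 158 (81.0%) had a value below 0, against 50.8% of all genes. Of the members, 67 (42.4%, beside 19.4% of all genes) lay below their control mean in all 4 2-DG libraries and 2 lay above it in all 4. The shift was uneven, since the median member, in log2 units relative to its control mean, lay at -0.46, -0.41 and -0.45 in 2-DG replicates 1, 2 and 3 and at -0.18 in 2-DG replicate 4, near the -0.15 of control replicate 1. The protein-coding genes of the same table had a median of 0.10, and those within the middle range of the members' levels, 6.52 to 26.0 CPM, a median of 0.01. Antisense genes of the table had a median of -0.55, processed transcripts -0.34 and genes of the class TEC (transcripts that await experimental support) -0.09, so that the shift was not particular to lincRNAs. Without control replicate 2 the members' median was -0.18 and that of all genes 0.03, and 113 members (71.5%, against 46.9% of all genes) had a value below 0. Then 39 members (24.7%, against 15.6% of all genes) lay below the mean of the other control libraries in all 4 2-DG libraries, and the medians of antisense genes, processed transcripts and protein-coding genes were -0.25, -0.19 and 0.11.

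**Figure D4:**
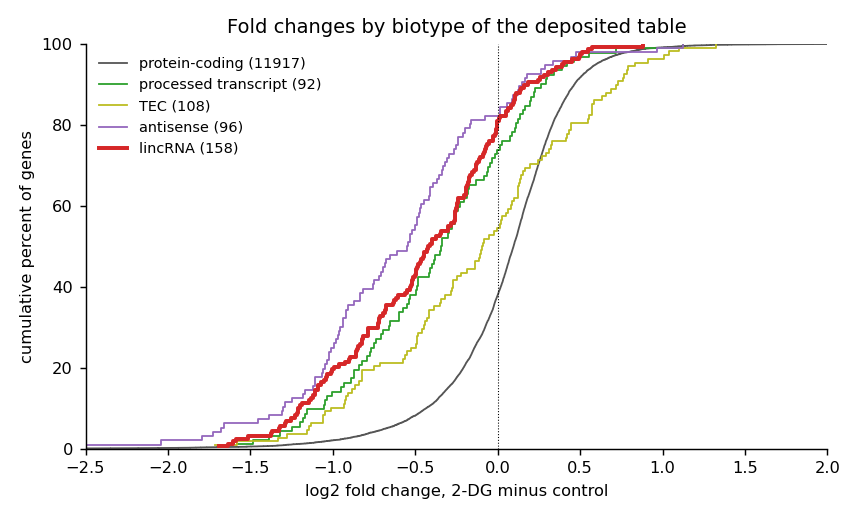
Cumulative percent of genes (vertical axis) by log2 fold change of 2-DG over control (horizontal axis) for 5 biotypes of the deposited comparison table, with the number of genes in brackets. The lincRNA line crosses 0 at 81.0%, near antisense (82.3%) and processed transcripts (73.9%), and the protein-coding line at 38.0%.

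The median log2 fold change was -0.30 for members with 1 exon (29 genes) and -0.47 for those with more (129 genes). Genes with a given name had a median of -0.11 (23 genes, 17 lower), those with a Gm number -0.47 (83 genes, 68 lower) and those with a Rik name -0.48 (48 genes, 40 lower). Without control replicate 2 the medians were -0.12 and -0.21 for members with 1 exon and with more, 0.02 for given names (10 lower and 13 higher), -0.24 for Gm numbers and -0.195 for Rik names. These medians are descriptions, and differences between the subsets were not tested.

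The members whose groups did not overlap were all low or moderate in level and none is among the well-known lincRNAs. 2900052N01Rik (chr9:46913493-46927366, plus strand, up to 4 exons), for which no function is given here, stood at 26.8, 20.7, 26.7, 34.0 and 34.0 CPM in the control libraries and at 14.4, 15.6, 10.1 and 15.2 CPM in the 2-DG libraries. The highest 2-DG library thus lay under the lowest control library, which was control replicate 2. The means were 28.4 ± 5.65 (SD, n = 5) and 13.8 ± 2.55 CPM (SD, n = 4), a log2 fold change of -1.04 (SE 0.24, edgeR adjusted p = 0.510); over the alternatives the log2 fold change ran from -1.14 to -0.91 and the adjusted p from 0.00432 to 0.985. The nearest protein-coding gene, Gm4791, lay 71375 bases away and was too low to be tested.

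Gm9484 (chr5:96996206-96997364, minus strand, single exon) stood at 4.92, 5.01, 6.34, 8.93 and 6.43 CPM in control and at 1.44, 2.99, 1.04 and 2.92 CPM in 2-DG libraries. Every 2-DG value was below the control range, and the fold change was the largest of the 6 (3.01-fold lower, log2 fold change -1.59, SE 0.42, edgeR adjusted p = 0.524). It lies 325 bases from Bmp2k, a kinase gene on the other strand, whose log2 fold change was -0.22 (SE 0.43).

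4933433G15Rik (chr9:75410184-75417709, plus strand) stood at 2.38, 3.08, 4.43, 6.96 and 6.95 CPM in control and at 1.19, 1.40, 2.04 and 2.00 CPM in 2-DG libraries. Control replicates 4 and 5 were the highest and control replicate 1 came close to the 2-DG range. The log2 fold change was -1.51 (SE 0.43, edgeR adjusted p = 0.524). Its start lies 179 bases from that of Mapk6, an atypical MAP kinase gene on the other strand, whose mean was 242 CPM in control explants and 234 CPM with 2-DG (log2 fold change -0.05, SE 0.38).

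4833445I07Rik (chr9:108567533-108569174, plus strand) stood at 3.15, 6.23, 4.12, 2.98 and 3.10 CPM in control and at 1.02, 2.12, 1.85 and 1.69 CPM in 2-DG libraries. Control replicate 2 was its highest library, and the other control libraries were still above all 2-DG libraries. The log2 fold change was -1.21 (SE 0.39, edgeR adjusted p = 0.546), and Ndufaf3, an assembly factor gene of mitochondrial complex I that lies 99 bases away on the other strand, had -0.18 (SE 0.23).

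A330102I10Rik (chr13:29014399-29040336, plus strand) stood at 6.31, 5.94, 6.87, 5.01 and 5.53 CPM in control and at 2.80, 2.92, 4.67 and 1.46 CPM in 2-DG libraries, of which 2-DG replicate 3 came nearest to the control range. The log2 fold change was -0.996 (SE 0.37, edgeR adjusted p = 0.616). Its nearest protein-coding gene was Sox4, a transcription factor gene 60686 bases away, with a log2 fold change of -0.36 (SE 0.63).

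6720427I07Rik, named here after its values were seen because its p was not under 0.05, had the smallest change of the 6 and a narrow spread. It stood at 14.5, 16.1, 16.5, 15.9 and 13.1 CPM in control and at 11.1, 10.7, 12.7 and 11.6 CPM in 2-DG libraries. The lowest control and the highest 2-DG library lay close together at 13.1 and 12.7 CPM, and the log2 fold change was -0.40 (SE 0.21, edgeR adjusted p = 0.733).

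**Figure D5:**
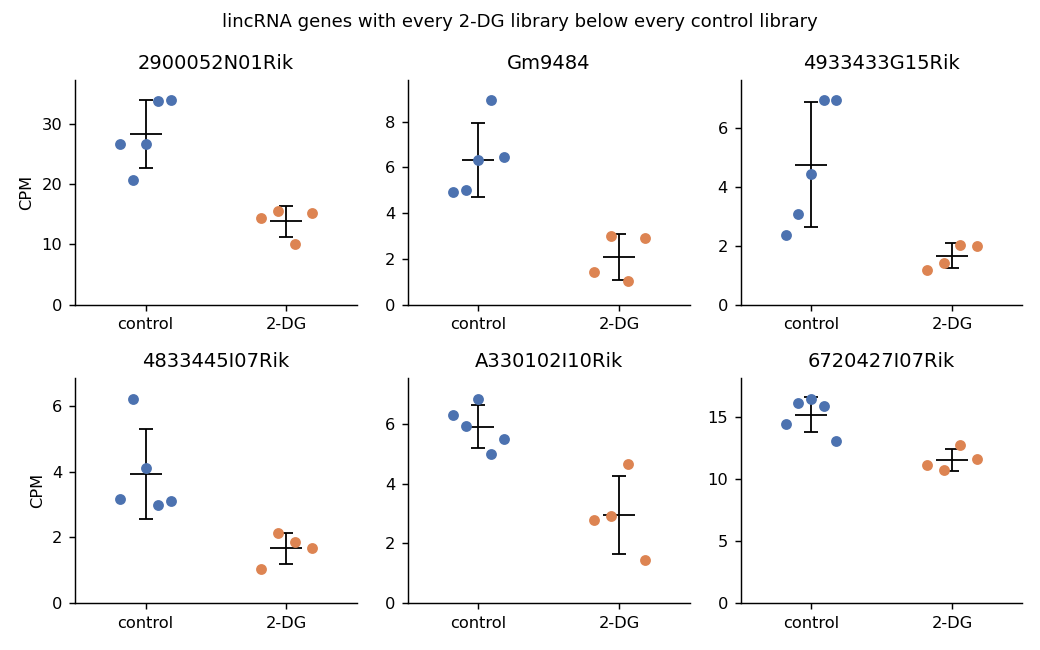
Level in CPM (vertical axes, each from 0) of the 6 lincRNA genes in which every 2-DG library lies below every control library, by group (horizontal axes); points are libraries and bars the mean and SD. The narrowest gap relative to the level is that of 6720427I07Rik (13.1 against 12.7 CPM), and Gm9484 has the largest fold change.

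Promoters of 2 of these genes are shown because those genes were the only ones of the 6 with an entry in the RefSeq promoter table (GRCm38.p6; 74 of the 158 members have one). Each runs from 250 bases before to 50 bases after the transcript start, for 2900052N01Rik at chr9:46913353-46913652 and for 4933433G15Rik at chr9:75409934-75410233, both plus strand. Capitals mark matches on either strand to GGGCGG (the core of the GC box), CACGTG (an E-box) or TGACGTCA (the cAMP response element).
2900052N01Rik: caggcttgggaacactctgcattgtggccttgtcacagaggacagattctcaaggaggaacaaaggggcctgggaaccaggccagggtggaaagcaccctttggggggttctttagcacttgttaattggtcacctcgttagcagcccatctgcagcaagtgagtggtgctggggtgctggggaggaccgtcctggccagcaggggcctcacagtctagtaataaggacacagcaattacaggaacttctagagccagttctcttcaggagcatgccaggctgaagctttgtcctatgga
4933433G15Rik: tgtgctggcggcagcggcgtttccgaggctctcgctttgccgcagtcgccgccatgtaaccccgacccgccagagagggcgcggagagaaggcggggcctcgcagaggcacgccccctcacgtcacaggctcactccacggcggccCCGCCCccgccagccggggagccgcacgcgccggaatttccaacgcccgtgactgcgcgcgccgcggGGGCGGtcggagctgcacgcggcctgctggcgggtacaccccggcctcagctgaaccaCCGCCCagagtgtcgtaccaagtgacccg

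The promoter of 4933433G15Rik, 73.7% G and C, held 3 matches to GGGCGG and none to the other motifs, and that of 2900052N01Rik, 54.7% G and C, held none of the 3 motifs. GGGCGG was found in 40.5% of the 74 members' promoters and in 35.9% of all 27025 promoters searched, CACGTG in 10.8 and 7.2%, and TGACGTCA in 6.8 and 1.9%. The median G and C content was 53% in the members' promoters and 52.7% in all. The last 2 motifs were held by 8 and 5 members' promoters, and these shares are descriptions.

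Among the well-known members none was called by edgeR, and the abundant nuclear RNAs lay near 0. Malat1, an abundant RNA of nuclear speckles, stood at 3043, 1107, 3363, 1627 and 1477 CPM in control and at 2577, 2749, 2022 and 1102 CPM in 2-DG libraries, with a log2 fold change of -0.01 (SE 0.43) whose sign changed with the scaling of the libraries. Its 4 lowest libraries were control replicates 2, 4 and 5 and 2-DG replicate 4, which were also the 4 lowest in the summed level of the bipolar cell markers (5 of 5 detected, 143 to 886 CPM, against 1476 to 2747 CPM in the other libraries); whether this has a part in the level of Malat1 was not tested, and in bulk tissue fewer cells of a type and less RNA per cell cannot be told apart. Neat1 had a log2 fold change of -0.11 (SE 0.34).

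Meg3, an imprinted RNA of the Dlk1-Dio3 region, stood at 1285, 2075, 739, 471 and 276 CPM in control and at 1307, 981, 1459 and 272 CPM in 2-DG libraries, a wide overlap with a log2 fold change of 0.05 (SE 0.62). Miat, an RNA of neurons also called Gomafu, ran from 2.10 to 86.6 CPM in control and from 5.52 to 91.7 CPM in 2-DG libraries (log2 fold change 0.25, SE 1.04). Both were lowest in control replicates 4 and 5 and 2-DG replicate 4, whichever the group. The signs of both changed when single libraries were left out.

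Xist stood at 2562, 5250, 5.57, 38.1 and 34.4 CPM in the control libraries and at 3467, 25.2, 2677 and 8.44 CPM in the 2-DG libraries. Control replicates 1 and 2 and 2-DG replicates 1 and 3 were thus high and the others low, in both groups, and the log2 fold change of -0.03 had an SE of 1.87. Jpx and Ftx, neighbours of Xist that promote its expression, ran from 12.7 to 49.0 and from 36.0 to 93.1 CPM in control and from 13.0 to 19.8 and from 37.1 to 58.4 CPM in 2-DG libraries, with log2 fold changes of -0.53 (SE 0.38) and -0.24 (SE 0.31). Their highest library was control replicate 2, and without it the log2 fold changes were -0.09 (SE 0.23) and 0.02 (SE 0.25).

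MiRNA host genes were found by position. On the same strand and within the gene, 13 members held mature miRNAs of the RefSeq table (GRCm38.p6), and Mir124a-1hg and Mir124-2hg host miR-124. The libraries measured the host transcripts, and mature miRNAs were not analysed here. MiRNAs of 4833445I07Rik, 6720427I07Rik and Mir670hg are printed because these were the hosts whose groups did not overlap or whose unadjusted p was under 0.05, and those of C130071C03Rik and Mir17hg as listed hosts of miR-9 and of the miR-17 cluster. Capitals mark the seed, bases 2 to 8.
miR-191-5p (4833445I07Rik): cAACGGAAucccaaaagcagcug
miR-425-5p (4833445I07Rik): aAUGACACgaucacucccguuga
let-7a-5p (6720427I07Rik): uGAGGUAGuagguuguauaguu
let-7d-5p (6720427I07Rik): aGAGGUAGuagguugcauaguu
let-7f-5p (6720427I07Rik): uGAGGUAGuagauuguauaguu
miR-670-5p (Mir670hg): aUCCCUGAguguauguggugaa
miR-129-5p (Mir670hg): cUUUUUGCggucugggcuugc
miR-9-5p (C130071C03Rik): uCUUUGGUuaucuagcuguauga
miR-17-5p (Mir17hg): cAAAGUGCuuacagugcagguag
miR-20a-5p (Mir17hg): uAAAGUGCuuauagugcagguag
miR-18a-5p (Mir17hg): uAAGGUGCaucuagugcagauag
miR-19a-3p (Mir17hg): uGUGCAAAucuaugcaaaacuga
miR-19b-3p (Mir17hg): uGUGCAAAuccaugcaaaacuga
miR-92a-3p (Mir17hg): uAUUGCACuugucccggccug

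Among the miRNAs printed, the 3 let-7 miRNAs of 6720427I07Rik share the seed GAGGUAG, miR-17-5p and miR-20a-5p share AAAGUGC, and miR-19a-3p and miR-19b-3p share GUGCAAA. Of the 13 hosts, 10 had a log2 fold change below 0 and 3 above (median -0.24, against -0.45 for the members that host none of these and not miR-124). Without control replicate 2, 8 were below 0 and 5 above, and these medians were -0.08 and -0.21. At an unadjusted p under 0.05 there were 2 lower hosts, 4833445I07Rik and Mir670hg (beside 4.83% of all genes), and 2 had groups without overlap, 4833445I07Rik and 6720427I07Rik (beside 1.41%). Mir670hg stood at 21.5, 19, 14.4, 17.1 and 9.79 CPM in control and at 15.6, 6.10, 7.97 and 6.63 CPM in 2-DG libraries. All but 2-DG replicate 1 lay below the control range, with a log2 fold change of -0.85 (SE 0.36, edgeR adjusted p = 0.665).

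For the hosts of miR-124, an abundant miRNA of neurons, the direction turned on 1 library. Mir124a-1hg stood at 385, 1943, 598, 555 and 738 CPM in control and at 609, 729, 534 and 693 CPM in 2-DG libraries, and Mir124-2hg at 240, 670, 248, 285 and 274 CPM and at 257, 282, 306 and 309 CPM. With all libraries the log2 fold changes were -0.40 (SE 0.45) and -0.25 (SE 0.33). Without control replicate 2, which was far above all others in both, they were 0.17 and 0.14. C130071C03Rik, a host of miR-9, also peaked in that library (62.2 CPM, against 19.4 to 28.6 CPM in the other control libraries and 9.98 to 34.1 CPM in 2-DG libraries), and without it its log2 fold change of -0.52 (SE 0.41) was -0.16 (SE 0.35). Gm3764, which also holds miR-9 and was named after its values were seen, did not peak there. It stood at 48.3, 21.8, 23.2, 21.5 and 10.5 CPM in control and at 6.28, 11.6, 22.4 and 6.58 CPM in 2-DG libraries. The groups overlapped, with all 2-DG libraries below the control mean and a log2 fold change of -1.09 (SE 0.50, edgeR adjusted p = 0.689). Mir17hg, the host of the miR-17 to miR-92 cluster, had a log2 fold change of -0.07 (SE 0.35).

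The host genes of small nucleolar RNAs and the remaining listed members had small or uncertain changes. Of the 5 snoRNA hosts among the members, Snhg12, Snhg15 and Snhg20 had log2 fold changes of -0.11 (SE 0.35), -0.17 (SE 0.41) and -1.33 (SE 0.75), and Snhg6 and Epb41l4aos had 0.05 (SE 0.40) and 0.10 (SE 0.45). The signs of these last 2 depended on the scaling, and all 5 were below 0 with library size only, with upper-quartile scaling, with the genes of the deposited table only, with limma-voom and without control replicate 1 or 2-DG replicate 4, against 1 to 3 of them in the other settings. The value of Snhg20 rested on control replicate 2, at 159 CPM against 14.5 to 28.8 CPM in the other control libraries and 10.4 to 36.7 CPM in 2-DG libraries, and was -0.12 (SE 0.42) without it. Oip5os1, a cytoplasmic RNA also called Cyrano, had a log2 fold change of 0.14 (SE 0.26), and Dubr, an RNA described in muscle cells, -0.09 (SE 0.32). None of these was called by edgeR.

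Slmapos2 and D730003I15Rik were called only with surrogate variables or with voom among the tests run. Slmapos2 stood at 62.3, 11.2, 53.9, 91.4 and 69.1 CPM in control and at 19.9, 31.2, 8.65 and 39.2 CPM in 2-DG libraries, so that it overlapped through control replicate 2 (log2 fold change -1.22, SE 0.56, edgeR adjusted p = 0.692). D730003I15Rik stood at 5.38, 18.4, 6.18, 9.43 and 14.3 CPM in control and at 2.80, 2.46, 4.04 and 7.81 CPM in 2-DG libraries, the last of which lay above control replicates 1 and 3 (log2 fold change -1.32, SE 0.49, edgeR adjusted p = 0.616). It lies 6415 bases from Atf3, a stress-induced transcription factor gene, whose mean was 260 CPM in control explants and 116 CPM with 2-DG (log2 fold change -1.16, SE 0.56, edgeR adjusted p = 0.709).

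The single higher member at an unadjusted p under 0.05, 9430037G07Rik, stood at 3.50, 2.86, 3.44, 1.87 and 1.97 CPM in control and at 5.52, 6.38, 5.13 and 3.06 CPM in 2-DG libraries. The groups overlapped through 2-DG replicate 4, which lay within the control range. The log2 fold change was 0.88 (SE 0.36, edgeR adjusted p = 0.656). Limma-voom called it higher (log2 fold change 1.23, adjusted p = 0.0321), the single higher call of a member by any test run. It was named after its values were seen.

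At the level of transcripts, 367 of the 448 member transcripts in the deposited transcript table passed the filter and edgeR called 0 of them, with 0% of all 62900 transcripts called. At an unadjusted p under 0.05 there were 19 lower (beside 2.28% of all transcripts) and 3 higher (beside 1.17%). Leaving out 2-DG replicates 1, 2 and 4 in turn gave 10, 14 and 64 in place of these 22 (beside 2.25, 2.52 and 7.55% of all transcripts). The smallest adjusted p was 0.9996. Transcripts of Gm9484, 4933433G15Rik and 4833445I07Rik and 2 transcripts of 2900052N01Rik were among the 19.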

How the data were processed

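Total RNA of the explants had been made into stranded libraries from 4 ng RNA with 13 PCR cycles and sequenced as 101-base read pairs, per the labels. The authors deposited estimated counts per gene and per transcript, unscaled; their processing notes name kallisto and GRCm38, and neither the version, the use of strand nor the step from transcripts to genes is given in the sources used here. The labels give batch 1 for all libraries. A deposited comparison table, with fold changes and p-values that were not used, gave gene identifiers and biotypes. Members and gene lists were chosen with earlier results of these data known.

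The deposited estimated counts were rounded to whole numbers (library totals changed by at most 0.00377%), filtered with filterByExpr, scaled with TMM and tested with edgeR 4.0.16 (glmQLFit, legacy=TRUE, robust=FALSE, and glmQLFTest; R 4.3.3), adjusted by the Benjamini-Hochberg method over 21049 genes at a threshold of 0.05. SE is the size of the log2 fold change over the root of F. CPM use the TMM-scaled library size. The edgeR step was tested on simulated data with a lower dispersion than these data and larger changes than the members' median. That test does not tell how often changes of the members' size would be called here. The common dispersion of the data was 0.265, a biological coefficient of variation of 51.45%. Alternatives were DESeq2 1.42.0, limma-voom with quality weights (limma 3.58.1), 2 surrogate variables (sva 3.50.0), other scalings and filters, a replicate block and leaving out each library. Genes were named if among the 12 most abundant, if at an unadjusted p under 0.05 without overlap between groups (with their nearest protein-coding gene), if on a list, or if called by an alternative (up to 5 each). Coordinates and exons are from GENCODE M21 on GRCm38. 0 sample columns were left without a sample.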

Additional observations from a re-analysis of the deposited data

Results flagged for a closer look

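Among 66 groups of values (the 32 named genes and the lincRNA share of counts, each in control and in 2-DG libraries), 10 held a library set apart from the rest of its group by Dixon's criterion, where chance gives about 1 in 20, and in 6 of the 10 it was control replicate 2. In control replicate 2, Mir124a-1hg stood at 1943 CPM (385 to 738 in the other control libraries), Mir124-2hg at 670 CPM (240 to 285), Gm47283 at 611 CPM (118 to 197) and Snhg20 at 159 CPM (14.5 to 28.8). Jpx stood at 49.0 CPM (12.7 to 20.6) and C130071C03Rik at 62.2 CPM (19.4 to 28.6) in the same library. In 2-DG replicate 4, AC160336.1 stood at 6807 CPM (1021 to 1886 in the other 2-DG libraries), Gm20186 at 506 CPM (85.9 to 140) and Mir17hg at 22.9 CPM (7.81 to 10.1). Gm32856 stood at 9.99 CPM in 2-DG replicate 2 (7.91 to 8.23 in the others).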

How the results depend on the processing

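The number of lincRNA genes called was 0 with edgeR under every other scaling, filter and dispersion setting, with the replicate block and without each library, and 5 with 2 surrogate variables, 4 with DESeq2 and 14 with limma-voom. At an unadjusted p under 0.05 the count was 19 of the 158 members (beside 7.25% of all genes). It was 36 with 2 surrogate variables (beside 19.8%), 53 with limma-voom (beside 26%) and 8 to 45 without single libraries (beside 4.63 to 12.9%). Members without overlap between the groups were 6 (beside 2.93% of all genes). They were 10 with the library size as the only scaling (beside 2.89%) and 7 to 17 without single libraries (beside 3.36 to 9.25%). The median log2 fold change lay between -0.52 and -0.18 in all settings, the latter without control replicate 2. The difference in share was -0.317 percentage points, -0.0772 without the 12 most abundant members, -0.102 without AC160336.1, Gm20186 and Gm12840, -0.108 without these and Xist (0.046 and -0.0447 when control replicate 2 was also left out, 0.0278 and -0.0312 when 2-DG replicate 4 was, and between -0.200 and -0.0569 and between -0.155 and -0.0918 when another library was), and -0.380 to -0.260 without single libraries; summed over transcripts it was -0.169. The causes were not tested.

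The labels do not say whether the replicate numbers pair the samples. The correlations of same-numbered deviations from the group mean were 0.451, -0.155, 0.102 and 0.205. Those of differently numbered ones ran from -0.689 to 0.415, so that so few values cannot decide on a pairing. With the replicate block 0 members were called, 18 had an unadjusted p under 0.05 and the median was -0.43. The mean within-number difference in share was -0.380 points, and the 2-DG library had the lower share in every same-numbered pair.

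Log2 fold changes of some named members, not all of them near 0, changed sign in some settings, none of them called. With 2 surrogate variables these were Xist 0.73, Mir124a-1hg 0.15, Mir124-2hg 0.0955, 2900097C17Rik 0.0982, Ftx 0.001 and Dubr 0.22. With limma-voom they were Malat1 0.21, Xist 3.27, Mir124a-1hg 0.13, Neat1 0.12, Ftx 0.0387, Epb41l4aos -0.0887, Snhg6 -0.18 and Dubr 0.18. DESeq2 and its size factors in edgeR gave Malat1 0.0027. With the genes of the deposited table only, Meg3 had -0.0453, Gm47283 -0.0033, Epb41l4aos -0.0095 and Snhg6 -0.0549. With upper-quartile scaling they had -0.0318, -0.0023, -0.0073 and -0.0557. With library size only, Xist had 0.0512, Epb41l4aos -0.0006 and Snhg6 -0.0639. With no filter, Malat1 had 0.0184, Xist 0.0375 and 2900097C17Rik 0.0235. With the replicate block, Meg3 had -0.23, Oip5os1 -0.0081, Neat1 0.0182, Miat -0.20 and Dubr 0.039. Without single libraries the log2 fold change ran from -0.17 to 0.22 for Malat1, -0.80 to 1.23 for Xist, -0.20 to 0.53 for Meg3, -0.58 to 0.17 for Mir124a-1hg, -0.36 to 0.14 for Mir124-2hg, -0.12 to 0.11 for 2900097C17Rik, -0.0794 to 0.72 for Gm47283, -0.037 to 0.28 for Oip5os1, -0.34 to 0.0742 for Neat1, -0.40 to 0.0244 for Ftx, -0.95 to 1.28 for Miat, -0.57 to 0.10 for Mir17hg, -0.21 to 0.41 for Epb41l4aos, -0.38 to 0.31 for Snhg6, -0.49 to 0.11 for Snhg12, -0.52 to 0.10 for Snhg15 and -0.22 to 0.22 for Dubr.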

Other observations

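Xist was set beside 4 Y-linked genes (Ddx3y, Eif2s3y, Kdm5d and Uty), chosen after the values of Xist had been seen. The 4 Y-linked genes summed to 4.58, 10.5, 4.81, 218 and 173 CPM in the control libraries and to 2.12, 3.42, 3.04 and 165 CPM in the 2-DG libraries. Control replicates 4 and 5 and 2-DG replicate 4 were high in these genes and low in Xist, and control replicates 1 and 2 and 2-DG replicates 1 and 3 were low in them and high in Xist. Control replicate 3 and 2-DG replicate 2 were low in both, with Xist at 5.57 and 25.2 CPM. Xist in the 4 high libraries ran from 2562 to 5250 CPM. The libraries high in the Y-linked genes were also the lowest in Meg3 and Miat. They were the highest in AC160336.1, at 7649 and 5302 CPM in control replicates 4 and 5 and 6807 CPM in 2-DG replicate 4. Whether what sets these libraries apart has a part in the levels of these members was not tested.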
